A study of Mus musculus with 8 samples.

Results

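Gene expression was compared between mouse embryonic stem cells that lack Dgcr8 and wild-type (WT) cells, with 2 RNA-seq libraries per line. Of the 49641 entries in the deposited table of FPKM (fragments counted per kilobase of a gene's transcripts and per library size), the 12685 with a mean of at least 1 FPKM over these 4 libraries were described. That threshold cuts through a dense range: 214 genes lay within 0.1 FPKM above it and 227 within 0.1 below, and the nearest genes on either side had means of 1.00021 and 0.998268. The change of a gene is the difference of the mean log2(FPKM + 1), Dgcr8 knockout (KO) minus WT, which understates the change of genes with low values.

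Both lines are labelled V6.5, an embryonic stem cell line of mixed 129/C57BL/6 background, and the genotype is given as WT or Dgcr8 KO. Both groups carry the treatment label control, and their columns are named mock. The column names begin with V65 in WT and with ES1 in KO, which does not settle whether both derive from the same parental line. With 1 line per genotype, the knockout and any other difference between the lines cannot be told apart. The other 4 libraries come from Dgcr8 KO cells transfected, 16 hr after plating, with 50 nM of a miR-294 mimic or of siRNAs against Mbnl1 and Mbnl2 (siMbnl1/2). Their values are set beside those of the main pair where they add to a gene, as a description, since any comparison with the KO control would share its 2 libraries. Cells were kept in serum and LIF, either on gelatin or on irradiated fibroblast feeders, without a statement of which was used for which sample. Libraries kept the strand (dUTP method), and the material is described both as polyA RNA and as total RNA. Whether replicates came from different cultures is not stated. The p-values therefore speak only to the spread among these libraries, which may be technical.

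Dgcr8 binds the hairpins of primary microRNA transcripts and, with the nuclease Drosha, forms the Microprocessor that cuts them out. Dicer then trims them, and an Argonaute protein carries the mature microRNA to messenger RNAs whose 3′ untranslated region (3′ UTR) pairs with its seed, bases 2 to 8, where Tnrc6 proteins bring in the machinery that shortens and destroys the message. Cells without Dgcr8 are known to make no canonical microRNAs. In embryonic stem cells the most abundant families are the miR-290 and miR-302 clusters, known for pushing cells through G1, and the miR-17 to miR-92 clusters. The question of the comparison is which genes differ when these are lost.

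The mature sequences are shown for the seeds that the results below turn on, with the seed in capitals. They are from RefSeq (GRCm38.p6), where 19 of 24 microRNAs looked for were found. The miR-290 and miR-302 members share 1 seed, and the miR-17 family carries nearly the same letters shifted by 1 base, so the 2 seeds' matches overlap in part. The last 4 are let-7, which stem cells hold back, and microRNAs known from muscle, neurons and gut. The entries for miR-302a-3p, miR-122-5p, miR-1a-3p, miR-133a-3p and miR-124-3p were not found.
miR-294-3p (chr7:3220691-3220712, plus strand): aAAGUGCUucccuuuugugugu
miR-291a-3p (chr7:3218968-3218989, plus strand): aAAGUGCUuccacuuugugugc
miR-295-3p (chr7:3220815-3220837, plus strand): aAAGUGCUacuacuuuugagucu
miR-302b-3p (chr3:127545275-127545297, plus strand): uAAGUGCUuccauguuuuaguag
miR-17-5p (chr14:115043684-115043706, plus strand): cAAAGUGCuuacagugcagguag
miR-130a-3p (chr2:84741116-84741137, minus strand): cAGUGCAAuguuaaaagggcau
miR-92a-3p (chr14:115044476-115044496, plus strand): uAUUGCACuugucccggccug
miR-19a-3p (chr14:115044048-115044070, plus strand): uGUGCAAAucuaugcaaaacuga
let-7a-5p (chr13:48538239-48538260, minus strand): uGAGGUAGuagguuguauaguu
miR-206-3p (chr1:20679055-20679076, plus strand): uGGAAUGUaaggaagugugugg
miR-9-5p (chr3:88215613-88215635, plus strand): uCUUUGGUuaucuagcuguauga
miR-192-5p (chr19:6264857-6264877, plus strand): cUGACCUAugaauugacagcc

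The fragment depth was read from the steps between the low values of genes with a single transcript, which put the normalising totals of the 8 libraries at 28.4 to 36.8 (in units of 1000000 fragments). At that depth 1 FPKM in a 2 kb transcript stood for 51.2 to 66.2 fragments. Across genes the 2 WT libraries correlated at a Pearson r of 0.986 and the 2 KO libraries at 0.972, with a median SD within the pair of 0.0463 and 0.103 on the log2 scale. FPKM summed to 571508 and 564280 in WT and to 502310 and 473746 in Dgcr8 KO. All 8 embryonic stem cell markers checked were at 1 FPKM or more in all 4 libraries. Of 7 defining fibroblast markers, Thy1 alone was, and Lum was at 0 in all 4. The 7 markers summed to 2.97 and 3.602 FPKM in WT and to 1.84 and 1.93 in Dgcr8 KO.

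Dgcr8 itself (ENSMUSG00000022718.11, chromosome 16, 18253948 to 18289246, minus strand of GRCm38) was at 22.9 and 21.9 FPKM in WT and 7.89 and 8.496 in Dgcr8 KO (log2 difference -1.35 ± 0.10, adjusted p = 3.31e-05), and the lines did not overlap. It was at 6.81 and 7.28 FPKM with the miR-294 mimic and 7.896 and 6.58 with siMbnl1/2. Since the value sums over the whole gene, transcripts that lack an exon still count in it, and it checks the labels only in part. Drosha, the nuclease partner, was at 40.1 and 40.8 FPKM in WT and 41.5 and 39.8 in Dgcr8 KO, and the 2 lines overlapped.

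Most of the measured genes differed. By limma's test over all genes, 7627 of 12685 (60.1%) were called at an adjusted p under 0.05, 3736 higher in Dgcr8 KO (29.5%) and 3891 lower (30.7%). The larger changes leaned upward: 1052 genes were higher by at least 2-fold (8.29%) against 510 lower (4.02%), and 26 against 14 by at least 8-fold. The direction moved with abundance. Of the 788 genes at 100 FPKM or more 534 were lower and 85 higher, whereas of the 3761 genes at 1 to 5 FPKM 709 were lower and 1205 higher. Each gene list below is read against the shares called in all genes, 29.5% higher and 30.7% lower, and against their median of -0.01. These shares do not allow for abundance: of the 3438 genes at 20 to 100 FPKM 1492 were lower and 754 higher. Lists with many abundant genes, such as those of the ribosome, DNA replication and the ATF4 program, were not compared with genes of like abundance. The threshold takes the mean over both lines, so a gene near 0 in 1 line was tested only through its values in the other. In brackets after FPKM values stands the log2 difference with its standard error, and "called" means an adjusted p under 0.05 by limma. For each gene described as higher, lower, risen or fallen, the 2 lines did not overlap.

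**Figure D1:**
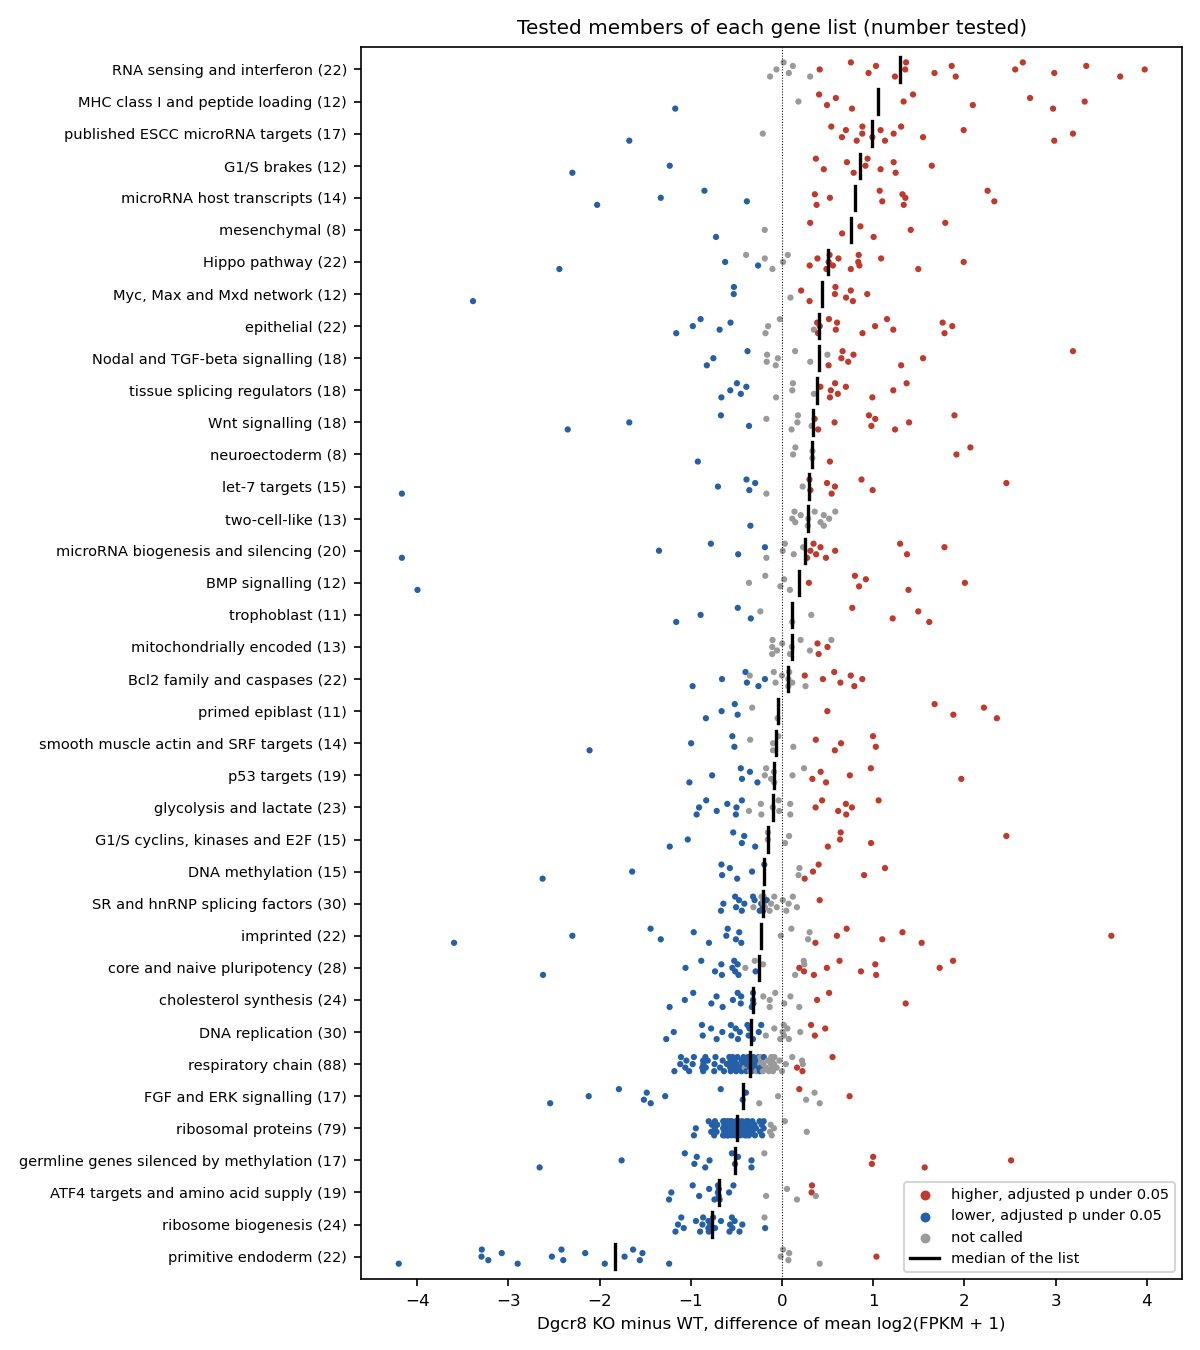
Each point is 1 tested gene of a list, placed by its difference between Dgcr8 KO and WT on the log2(FPKM + 1) scale. Red and blue points passed the test (higher and lower), grey points did not, the bar marks the median of the list and the number in brackets is how many members were tested. Interferon and antigen presentation genes and published microRNA targets lie to the right, and primitive endoderm markers, with a median of -1.83, furthest to the left.

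The silencing machinery downstream of the missing microRNAs rose. All 6 tested Argonaute and Tnrc6 genes were called higher, with a median of 0.94. Ago1, an Argonaute that binds mature microRNAs (ENSMUSG00000041530.16, chromosome 4, 126435012 to 126468583, minus strand), was at 9.69 and 9.899 FPKM in WT and 37.9 and 34.4 in Dgcr8 KO (log2 difference 1.78 ± 0.08, adjusted p = 5.34e-06). Both KO libraries were more than 3 times the WT level. The Tnrc6 scaffold proteins that link Argonaute to message decay moved in the same direction. Tnrc6a was at 26.9 and 26.3 FPKM in WT and 63.97 and 69.5 in Dgcr8 KO (1.30 ± 0.07). Tnrc6b was at 4.51 and 4.58 FPKM in WT and 13.2 and 13.5 in Dgcr8 KO (1.37 ± 0.08). The remaining members differed less. Ago2, the Argonaute with slicing activity, was at 20.3 and 20.8 FPKM in WT and 25.3 and 24.9 in Dgcr8 KO (log2 difference 0.28 ± 0.09, adjusted p = 0.0346). Its call was lost when any 1 of the 4 libraries was left out (adjusted p 0.0868 to 0.145), and when genes were centred on others of like transcript length its difference was -0.04 (adjusted p = 0.712). Ago3 was higher by 0.42, a call also lost with that centring (adjusted p = 0.442), under quantile normalization and without KO replicate 2 or WT replicate 1. Ago4 was below the threshold, at 0.0681 and 0.0623 FPKM in WT and 0.318 and 0.342 in Dgcr8 KO.

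Upstream of the Argonautes the genes did not move together. Of 4 Microprocessor genes 1 was higher and 2 lower, and of 4 genes for export and dicing 2 were higher and 2 lower. Tarbp2, a double-stranded RNA-binding partner of Dicer, was at 54.01 and 49.5 FPKM in WT and 31.9 and 27.6 in Dgcr8 KO (-0.78 ± 0.09). Dicer1, which trims the hairpins, was at 13.3 and 13.3 FPKM in WT and 17.7 and 17.5 in Dgcr8 KO (0.37 ± 0.07), a call lost with length centring (adjusted p = 0.453). Over the whole list of 20 tested genes 10 were higher and 5 lower, with a median of 0.25. With length centring 6 were higher and 6 lower, and the sign of the median turned (-0.02).

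Transcripts that carry microRNA hairpins were mostly higher. Of 7 tested noncoding hosts, transcripts cut by the Microprocessor, 6 were higher and 1, Mir9-3hg, was lower (-0.85). Meg3, from the imprinted Dlk1 to Dio3 region, was at 118 and 112 FPKM in WT and 268 and 229 in Dgcr8 KO (1.10 ± 0.10). Rian, from the same region, was at 143 and 140.3 FPKM in WT and 351 and 360.0 in Dgcr8 KO (1.32 ± 0.06). Mir22hg, host of miR-22, was at 8.55 and 10.2 FPKM in WT and 26.2 and 24.2 in Dgcr8 KO (1.33 ± 0.09). All 3 were more than 2 times the WT level. Hosts with functions of their own split, 4 higher and 3 lower of 7. The largest fall among them was Sfmbt2, a Polycomb protein gene that holds a large microRNA cluster in an intron, at 10.7 and 10.8 FPKM in WT and 1.803 and 1.96 in Dgcr8 KO (-2.03 ± 0.12). The largest rise was Ctdspl, a small phosphatase gene with an intronic miR-26, at 1.12 and 1.13 FPKM in WT and 4.45 and 4.41 in Dgcr8 KO (1.35 ± 0.16).

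Genes published as targets of the miR-290 and miR-302 seed, whose microRNAs are called embryonic stem cell cycle (ESCC) regulators, were higher in 15 of 17 cases (88.2%), with a median of 0.99, and 1 was lower. The list holds Mbnl1 and Mbnl2 because the study transfected siRNAs against them, so their place in it is not independent of the study. The longest annotated 3′ UTR of each of the 17 held a match to the seed, against 20.9% of all coding genes tested with an annotated 3′ UTR. Since the genes are published targets of this seed, that contrast is not independent of how they were listed. Sequences are shown around the best match of 7 of the 8 genes with an 8mer, the letters AGCACTTA, which pair with the seed and end opposite base 1 in an A, and for Mbnl1 and Mbnl2, whose matches have 7 letters (GCACTTA or AGCACTT). The site of Mbd2, the eighth, is not shown. The sequences come from GENCODE M21 models on GRCm38. Capitals mark the match, and a match is a description of the letters, not evidence that the site is used.
Cdkn1a (chr17:29100490-29100517, plus strand): tgggtgtcaaAGCACTTAgtgggtctga
Rbl2 (chr8:91123820-91123844, plus strand): ttttcaataaAGCACTTAtaaatta
Lats2 (chr14:57691076-57691103, minus strand): gtatggaaagAGCACTTAttttgtggat
Lefty1 (chr1:180938203-180938230, plus strand): ctgtatgcgaAGCACTTAcatgtataga
Lefty2 (chr1:180897907-180897934, plus strand): acccagtttaAGCACTTAcatgggtaaa
Tgfbr2 (chr9:116087761-116087788, minus strand): caaaacctaaAGCACTTAttttcaatct
Irf2 (chr8:46846654-46846681, plus strand): cttatcttgaAGCACTTAcaataggcct
Mbnl1 (chr3:60629513-60629539, plus strand): tactgatgttGCACTTAccagcaaccc
Mbnl2 (chr14:120431482-120431508, plus strand): aggctataacAGCACTTcacagaacta

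All 9 genes whose sequences are shown were higher in Dgcr8 KO. The cyclin-dependent kinase inhibitor Cdkn1a was at 25.9 and 24.9 FPKM in WT and 64.4 and 57.1 in Dgcr8 KO (log2 difference 1.22 ± 0.08, adjusted p = 2.62e-05). Rbl2, the pocket protein p130 that holds E2F in check, was at 4.303 and 3.17 FPKM in WT and 9.36 and 8.56 in Dgcr8 KO (log2 difference 1.08 ± 0.13, adjusted p = 2.47e-04). Lats2, a Hippo kinase that also slows the cell cycle, was at 1.74 and 1.65 FPKM in WT and 10.1 and 9.38 in Dgcr8 KO (1.99 ± 0.10). With the miR-294 mimic Lats2 stood at 2.98 and 2.74 FPKM, between the 2 lines. The signalling members included both sides of the TGF-beta family. Tgfbr2, the type II receptor, was at 0.516 and 0.587 FPKM in WT and 3.15 and 2.55 in Dgcr8 KO (1.31 ± 0.14). Lefty2, a secreted Nodal inhibitor that shares much of its sequence with Lefty1, was at 7.58 and 6.71 FPKM in WT and 23.5 and 22.02 in Dgcr8 KO (1.55 ± 0.20), and reads common to the pair may be split between them. Members without an 8mer rose as well. Casp2, an apoptotic protease whose 3′ UTR held 3 matches of 7 letters, was at 11.9 and 10.2 FPKM in WT and 21.6 and 20.6 in Dgcr8 KO (0.88 ± 0.09). The exception was Dkk1, a secreted Wnt inhibitor, at 2.47 and 2.14 FPKM in WT and 0.0423 and 0.0289 in Dgcr8 KO (-1.67 ± 0.12), although its 3′ UTR held a GCACTTA match. Rhoc, a small GTPase gene, was at 76.4 and 69.6 FPKM in WT and 69.7 and 56.8 in Dgcr8 KO, and the lines overlapped.

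The same leaning was seen past the published list. Of 11423 tested coding genes with an annotated 3′ UTR, 2383 (20.9%) held a 7-letter or 8-letter match to the miR-290 seed. Their median difference was 0.22, against -0.05 in the 9040 genes without one, and 45.4% against 27.2% were called higher. In the 411 genes with an 8mer the median was 0.39, and 55.5% were called higher and 14.4% lower. Some 8mer genes with large increases were picked after their values were seen. Lamp2, a lysosomal membrane protein gene, was at 12.1 and 12.9 FPKM in WT and 63.9 and 67.3 in Dgcr8 KO. Hs6st1, a heparan sulfate 6-O-sulfotransferase gene, was at 15.7 and 15.4 FPKM in WT and 68.6 and 62.5 in Dgcr8 KO. Rrm2b, a ribonucleotide reductase subunit gene that p53 can induce, was at 2.62 and 2.94 FPKM in WT and 14.3 and 13.2 in Dgcr8 KO. With the mimic Lamp2 stood at 16.3 and 15.9, Hs6st1 at 33.9 and 32.3 and Rrm2b at 2.18 and 2.38 FPKM, below both KO control libraries in each case.

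Differences for other seeds ranged from close to that of miR-290 to well below it. The median of genes with a match minus that of genes without was 0.25 for the miR-17 seed, 0.25 for miR-130, 0.22 for miR-92 and 0.20 for miR-19, against 0.28 for miR-290. The 5 seeds of microRNAs known from muscle, neurons, gut and myeloid cells gave 0.10 to 0.17. Of the remaining seeds, miR-21 gave 0.18, miR-16 0.12, the 5p arm of miR-290a 0.12 and let-7 0.11. Genes with long 3′ UTRs held matches more often, 162, 651 and 1570 genes for miR-290 in 3 equal classes of 3′ UTR length from short to long, and were themselves higher, with medians of -0.17, 0.01 and 0.16. Within these classes the miR-290 difference was 0.21, 0.16 and 0.17 and the miR-17 difference 0.21, 0.17 and 0.13, while the 5 seeds from other tissues gave -0.03 to 0.09. The miR-130 difference was 0.17, 0.16 and 0.14, that of miR-92 0.09, 0.15 and 0.12 and that of miR-19 0.10, 0.11 and 0.11. For miR-16 it was 0.01, -0.01 and 0.03, for the 5p arm of miR-290a -0.01, -0.06 and 0.03, and for miR-21 0.09, 0.03 and 0.09. For let-7 it was 0.08, -0.01 and -0.01. Once genes were centred on others of like transcript length, the miR-290 difference over all classes was 0.14. These gaps are a description: genes are not replicates, a 3′ UTR can hold several seeds, and no test was made.

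**Figure D2:**
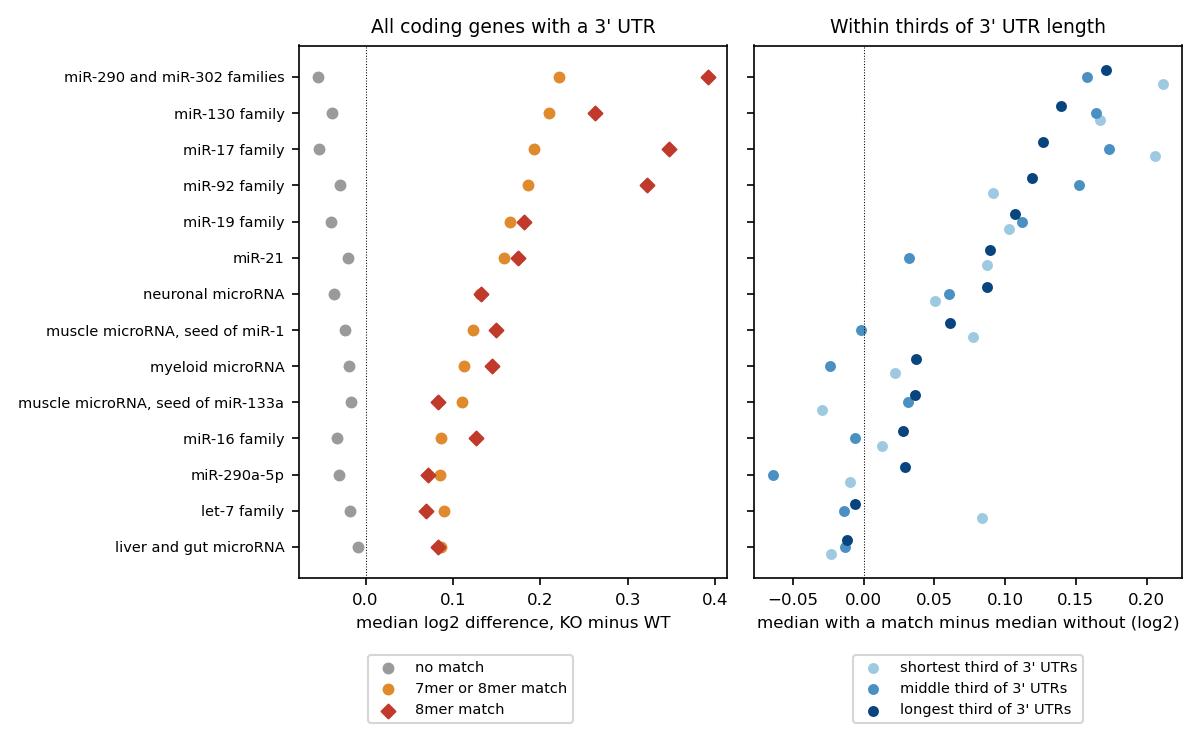
The left panel gives, for each seed family, the median difference (Dgcr8 KO minus WT, log2 scale) of coding genes with no match (grey), with a 7-letter or 8-letter match (orange) and with an 8-letter match (red) in the 3′ UTR. The right panel gives the median with a match minus that without, within 3 classes of 3′ UTR length, where the miR-290 seed stands at 0.16 to 0.21.

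Brakes on the G1 to S transition were mostly higher. Of 12 tested 10 rose (83.3%) and 2 fell, with a median of 0.85. Rb1, the retinoblastoma pocket protein, was at 2.804 and 2.89 FPKM in WT and 10.46 and 11.6 in Dgcr8 KO (log2 difference 1.64 ± 0.10, adjusted p = 1.74e-05). Its relative Rbl1 was at 7.49 and 7.33 FPKM in WT and 12.7 and 14.3 in Dgcr8 KO (0.79 ± 0.09). All 4 Ink4 inhibitors of the cyclin D kinases rose. Cdkn2a was at 21.8 and 21.4 FPKM in WT and 46.1 and 38.9 in Dgcr8 KO (0.94 ± 0.15). Cdkn2c was at 0.391 and 0.313 FPKM in WT and 2.24 and 2.17 in Dgcr8 KO (1.25 ± 0.12). The exceptions were Cdkn1c, an imprinted inhibitor, which fell by 2.30, and E2f4, a repressive E2F on chromosome 8, which was low as a whole. Without genes of that chromosome 9 brakes were higher and 1 lower. E2f4 was at 114 and 106 FPKM in WT and 48.02 and 44.3 in Dgcr8 KO (-1.23 ± 0.07).

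Cyclins moved in opposite directions. Ccnd2, cyclin D2, was at 4.84 and 4.77 FPKM in WT and 30.02 and 31.9 in Dgcr8 KO (log2 difference 2.46 ± 0.08, adjusted p = 1.76e-06). Ccne1, cyclin E1, was at 109 and 111 FPKM in WT and 47.2 and 45.3 in Dgcr8 KO (log2 difference -1.23 ± 0.07, adjusted p = 9.85e-06). With the mimic Ccne1 stood at 109 and 104 FPKM, close to WT in both libraries. Its relative Ccne2 was higher by 0.98 ± 0.15. Ccnd1 was at 42.7 and 43.8 FPKM in WT and 45.2 and 46.2 in Dgcr8 KO, without a call. Genes for DNA replication were lower in 18 of 30 cases (60%) and higher in 3, with a median of -0.34. Of these genes 6 lie on chromosome 8, which was low as a whole, and without them 12 were lower and 3 higher. Mcm5, a helicase subunit gene on that chromosome, was at 251 and 238 FPKM in WT and 112 and 102 in Dgcr8 KO (-1.19 ± 0.07). Orc1, an origin licensing gene on chromosome 4, was at 28.8 and 30.4 FPKM in WT and 17.4 and 16.3 in Dgcr8 KO (-0.78 ± 0.08). In the opposite direction, Mcm7, whose introns carry the miR-106b cluster, was at 169 and 169 FPKM in WT and 223 and 211 in Dgcr8 KO (0.36 ± 0.07).

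Pluripotency genes stayed expressed and shifted in both directions. Of 28 tested, 10 were higher and 12 lower, and the median was -0.25. The balance turned under quantile normalization, with 12 higher, 9 lower and a median of 0.05. The largest increase was Klf2, a naive state factor (ENSMUSG00000055148.7, chromosome 8, 72319033 to 72321656, plus strand), at 44.8 and 44.9 FPKM in WT and 176 and 159 in Dgcr8 KO (log2 difference 1.88 ± 0.07, adjusted p = 2.24e-06). It lies on chromosome 8 and rose against the low level there. Prdm14, which guards the naive state and the germline, was at 6.28 and 6.296 FPKM in WT and 14.5 and 13.1 in Dgcr8 KO (1.02 ± 0.12). The largest fall was Gbx2, a homeobox gene downstream of LIF, at 44.96 and 47.1 FPKM in WT and 6.22 and 7.098 in Dgcr8 KO (log2 difference -2.62 ± 0.19, adjusted p = 3.21e-05). With the mimic Gbx2 stood at 35.8 and 38.5 FPKM, nearer to WT. Both receptor chains for LIF were higher. Il6st, the shared chain gp130, was at 14.1 and 14.02 FPKM in WT and 49.3 and 48.6 in Dgcr8 KO (1.73 ± 0.15). Lifr was at 7.89 and 8.204 FPKM in WT and 12.9 and 13.1 in Dgcr8 KO (0.63 ± 0.08). Klf4 was at 61.9 and 62.1 FPKM in WT and 51.2 and 49.3 in Dgcr8 KO, without a call.

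Some genes of the primed epiblast rose and others did not. Otx2, a homeobox factor of the exit from naive pluripotency (ENSMUSG00000021848.15, chromosome 14, 48657677 to 48673819, minus strand), was at 2.99 and 2.83 FPKM in WT and 19.103 and 18.9 in Dgcr8 KO (log2 difference 2.36 ± 0.09, adjusted p = 2.68e-06). Zic2, a zinc finger factor, was at 3.61 and 3.86 FPKM in WT and 21.3 and 20.6 in Dgcr8 KO (2.21 ± 0.07). Zic5, its neighbour on chromosome 14, was higher by 1.67 ± 0.13. Cd24a, a surface glycoprotein gene, was at 10.2 and 10.6 FPKM in WT and 39.9 and 42.2 in Dgcr8 KO (1.88 ± 0.20). Other members were not called higher. Pou3f1 (Oct6) was at 2.74 and 2.62 FPKM in WT and 1.85 and 2.02 in Dgcr8 KO, without a call. Fgf5, the usual marker of the primed state, was near 0 in both lines, at 0.0665 and 0.134 FPKM in WT and 0.0136 and 0.0140 in Dgcr8 KO. In all 5 of 11 tested genes were higher and 4 lower. The sign of the median (-0.05) changed without KO replicate 2 (0.05), without WT replicate 1 (0.08) and with length centring (0.10). Among the 7 genes with a mean of at least 5 FPKM it was 1.67. That mean covers both lines, so Otx2 and Zic2, below 5 FPKM in WT, passed through their KO values.

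Markers of primitive endoderm, the extraembryonic lineage that stem cell cultures form in small numbers, were present in WT and low in Dgcr8 KO. Of 22 tested genes 16 were lower (72.7%) and 1 higher, and without chromosome 8 genes 13 of 19 were lower. Genes near 0 in Dgcr8 KO, such as Sox17 and Cubn, passed the threshold only through their WT values. All 6 tested transcription factors fell. Sox17 was at 8.43 and 8.41 FPKM in WT and 0.101 and 0.137 in Dgcr8 KO (log2 difference -3.07 ± 0.11, adjusted p = 2.24e-06). Gata4 was at 12.04 and 11.6 FPKM in WT and 3.15 and 2.63 in Dgcr8 KO (-1.73 ± 0.12). The fall reached surface proteins of the lineage. Pdgfra, its growth factor receptor, was at 6.83 and 6.26 FPKM in WT and 0.392 and 0.236 in Dgcr8 KO (-2.52 ± 0.12). Cubn, an endocytic receptor, was at 8.97 and 9.01 FPKM in WT and 0.0827 and 0.0614 in Dgcr8 KO (-3.22 ± 0.10). Basement membrane genes split, 4 lower and 1 higher of 7, and 2 of the 7 lie on chromosome 8, which was low as a whole. Lama1, laminin alpha 1, was at 42.95 and 44.5 FPKM in WT and 5.35 and 4.66 in Dgcr8 KO (-2.90 ± 0.10). Col4a1, a collagen IV chain, was at 82.5 and 81.3 FPKM in WT and 15.9 and 13.6 in Dgcr8 KO (-2.40 ± 0.15). Lamc1, the laminin chain found in most laminins, was at 104 and 106 FPKM in WT and 117 and 104 in Dgcr8 KO, and the lines overlapped. Nid1, which ties laminin to collagen IV, was higher, at 21.6 and 21.03 FPKM in WT and 46.6 and 43.1 in Dgcr8 KO (1.04 ± 0.08). In bulk libraries fewer cells of a type and less RNA per cell cannot be told apart. With the mimic Sox17 stood at 0.262 and 0.228 and Cubn at 0.121 and 0.153 FPKM, far below WT.

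**Figure D3:**
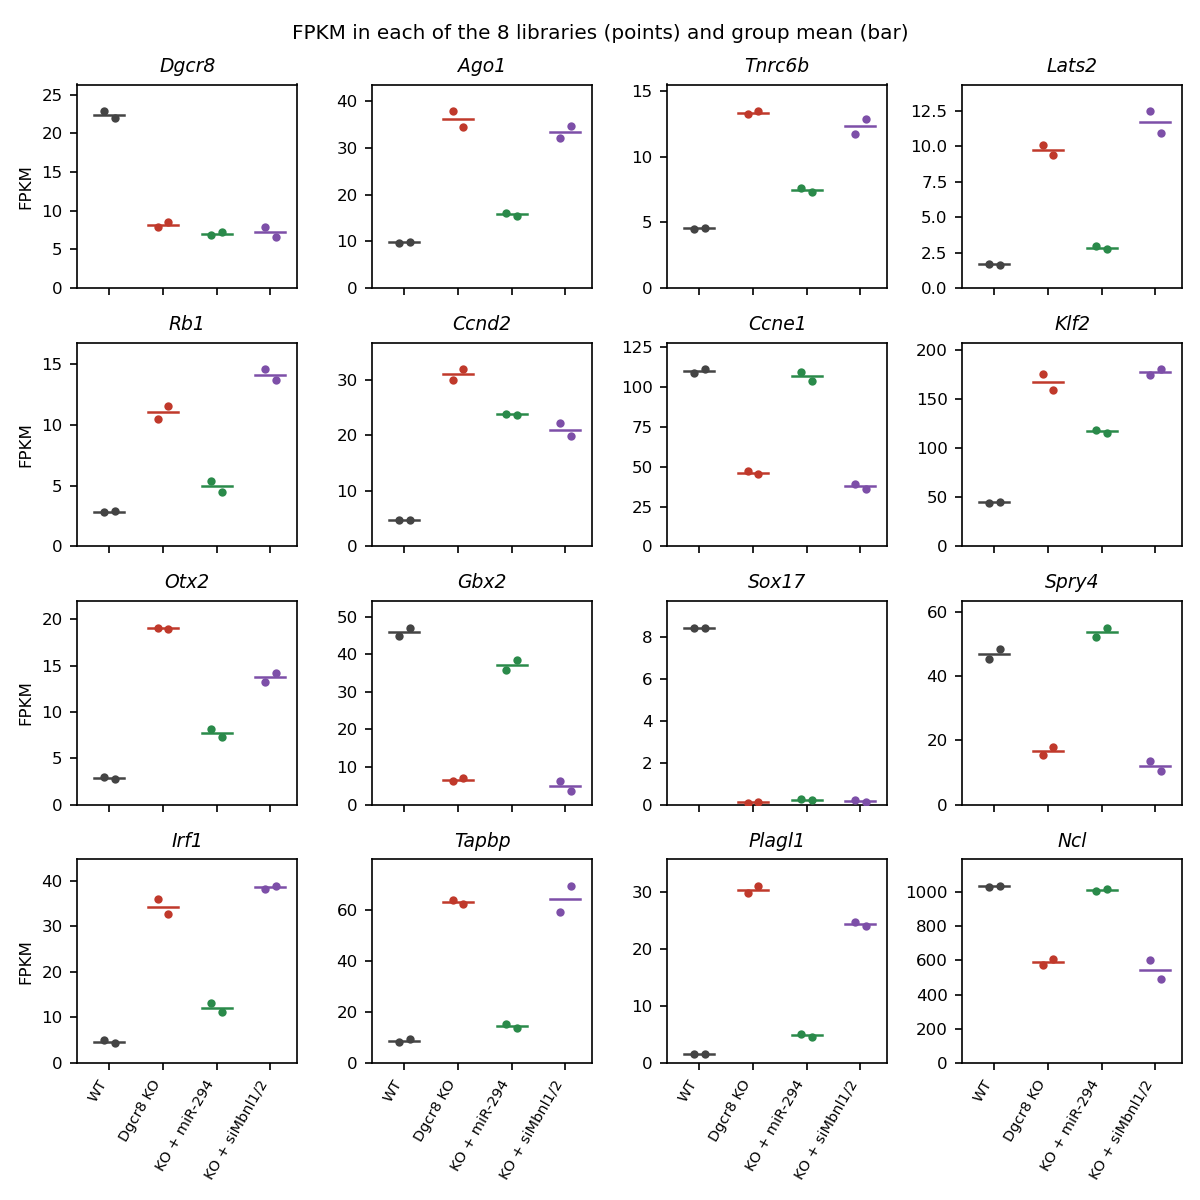
FPKM of 16 genes in each of the 8 libraries, with points for libraries and bars for group means, on linear axes from 0. WT and Dgcr8 KO do not overlap for any of the 16, and the miR-294 libraries lie near WT for Ccne1, Spry4 and Ncl and near Dgcr8 KO for Dgcr8 and Sox17.

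Other lineages moved gene by gene. Of 8 tested neuroectoderm genes 3 were higher and 1 lower. Pax6, a neural and eye field factor, was at 1.296 and 1.85 FPKM in WT and 9.61 and 9.81 in Dgcr8 KO (2.07 ± 0.13). Ncam1, an adhesion molecule gene, was at 1.19 and 1.42 FPKM in WT and 7.92 and 7.399 in Dgcr8 KO (1.91 ± 0.14). Tubb3, the neuronal tubulin, was lower, at 36.9 and 36.1 FPKM in WT and 20.4 and 17.3 in Dgcr8 KO (-0.92 ± 0.14). Sox1 was at 7.33 and 7.82 FPKM in WT and 8.44 and 8.54 in Dgcr8 KO, without a call. Of 11 trophoblast genes 4 were higher and 4 lower. Esx1, a placental homeobox gene, was at 3.29 and 2.86 FPKM in WT and 9.200 and 7.74 in Dgcr8 KO (1.21 ± 0.21). Krt18, a keratin of simple epithelia, was at 46.5 and 44.8 FPKM in WT and 22.01 and 17.9 in Dgcr8 KO (-1.16 ± 0.16). Cdx2, the factor that defines the lineage, was below the threshold in both lines, at 0.445 and 0.450 FPKM in WT and 0.198 and 0.219 in Dgcr8 KO.

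FGF and ERK signalling genes were mostly lower. Of 17 tested 10 were lower (58.8%) and 2 higher, and 7 of the falls were among 11 feedback inhibitors and targets of the pathway. Spry4, a feedback inhibitor, was at 45.5 and 48.4 FPKM in WT and 15.6 and 17.8 in Dgcr8 KO (log2 difference -1.44 ± 0.12, adjusted p = 5.20e-05). Spry2 was at 65.1 and 66.8 FPKM in WT and 21.99 and 22.9 in Dgcr8 KO (-1.51 ± 0.09). Etv4, an ETS factor that the pathway induces, was at 153 and 148 FPKM in WT and 26.6 and 23.5 in Dgcr8 KO (-2.54 ± 0.08). With the mimic Spry4 stood at 52.1 and 55.1 FPKM, above both WT libraries. The ERK phosphatase genes Dusp4 and Dusp6 fell by 2.12 and 1.48. The receptor gene Fgfr1 was at 30.5 and 29.2 FPKM in WT and 33.6 and 24.9 in Dgcr8 KO, and the lines overlapped. The immediate early gene Egr1 was at 2.79 and 2.75 FPKM in WT and 3.58 and 4.09 in Dgcr8 KO, without a call.

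In the BMP pathway the fall of the ligand gene Bmp4 (from 27.3 and 27.4 to 0.808 and 0.740 FPKM) stood beside rises of receptors and of some targets. Of 12 tested genes 6 were higher and 1 lower. Bmpr2, the type II receptor, was at 2.78 and 2.97 FPKM in WT and 5.45 and 6.51 in Dgcr8 KO (0.85 ± 0.11). Smad6, an inhibitory Smad, was at 2.15 and 2.34 FPKM in WT and 7.78 and 7.200 in Dgcr8 KO (1.39 ± 0.10). The Id genes, which BMP signalling induces, did not move as 1 group. Id2 was at 11.3 and 10.1 FPKM in WT and 46.6 and 45.4 in Dgcr8 KO (2.01 ± 0.11). Id1 was at 142 and 140.3 FPKM in WT and 115 and 105 in Dgcr8 KO, without a call. Id3 was at 26.5 and 26.3 FPKM in WT and 27.3 and 24.9 in Dgcr8 KO, and the lines overlapped.

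In the Nodal and TGF-beta group 8 of 18 genes were higher and 3 lower. Gdf3, a ligand of the family, was at 51.5 and 54.6 FPKM in WT and 93.02 and 84.04 in Dgcr8 KO (0.73 ± 0.07). Tgfbr1, the type I receptor, was at 6.66 and 6.49 FPKM in WT and 11.9 and 12.2 in Dgcr8 KO (0.78 ± 0.09). Nodal itself was lower, at 31.4 and 31.1 FPKM in WT and 25.4 and 22.4 in Dgcr8 KO (-0.38 ± 0.08). Wnt genes were higher in 9 and lower in 4 of 18 cases, with a median of 0.34. With length centring 7 were higher and 4 lower, with a median of 0.10. Gsk3b, the kinase that marks beta-catenin for destruction, was at 8.69 and 8.16 FPKM in WT and 18.97 and 23.7 in Dgcr8 KO (1.24 ± 0.12). Axin2 and Notum, both feedback inhibitors that Wnt signalling induces, went in opposite directions. Axin2 was at 7.71 and 8.21 FPKM in WT and 0.568 and 0.970 in Dgcr8 KO (-2.35 ± 0.19). Notum was at 7.37 and 7.91 FPKM in WT and 31.3 and 30.8 in Dgcr8 KO (1.89 ± 0.10).

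In the Hippo pathway 14 of 22 genes were higher (63.6%) and 3 lower, and 11 and 5 with length centring. Beside Lats2, its relative Lats1 was at 3.797 and 4.003 FPKM in WT and 7.54 and 7.96 in Dgcr8 KO (0.84 ± 0.09). Stk3, the kinase upstream of both, was at 8.05 and 8.56 FPKM in WT and 15.00 and 16.5 in Dgcr8 KO (0.85 ± 0.09). Nf2, the adaptor merlin, was at 47.4 and 48.7 FPKM in WT and 107 and 99.1 in Dgcr8 KO (1.09 ± 0.08). The angiomotin gene Amot, which holds Yap at junctions, was lower, at 5.76 and 5.56 FPKM in WT and 0.212 and 0.242 in Dgcr8 KO (-2.44 ± 0.11).

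Antiviral and antigen presentation genes were the lists with the highest medians, 1.30 and 1.05. Of 34 genes of RNA sensing and interferon response 12 were below the threshold in both lines together, and of the 22 tested 16 were higher (72.7%). Members low in WT, such as Oas2 and Oasl1, entered the 22 only through their KO values, so their direction was largely set by the filter. By limma 0 were lower, as at an unadjusted p under 0.05 and under quantile normalization and median-of-ratios scaling, and 1 with length centring. Irf1, a transcription factor of the response, was at 5.04 and 4.31 FPKM in WT and 35.9 and 32.8 in Dgcr8 KO (log2 difference 2.64 ± 0.11, adjusted p = 3.58e-06). Irf9, a factor that acts on interferon-response elements, rose by 1.03. The oligoadenylate synthetase family, whose products switch on RNase L, was low in WT. Oas2 was at 0.534 and 0.458 FPKM in WT and 4.61 and 4.26 in Dgcr8 KO (1.86 ± 0.10). Oasl1, a relative without that activity, was at 0.668 and 0.619 FPKM in WT and 5.45 and 4.87 in Dgcr8 KO (1.91 ± 0.19). Members of the family are alike enough to share reads.

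Sensors differed from one another. Eif2ak2, the RNA-activated kinase PKR, was at 6.71 and 7.43 FPKM in WT and 13.8 and 15.4 in Dgcr8 KO (0.95 ± 0.11). Mavs, the mitochondrial adaptor of the RNA helicase sensors, was at 8.29 and 8.41 FPKM in WT and 16.7 and 13.04 in Dgcr8 KO (0.76 ± 0.17). Ddx58, the sensor RIG-I itself, was at 14.3 and 14.5 FPKM in WT and 14.99 and 16.5 in Dgcr8 KO, without a call. Several of the best known interferon-induced genes were below 1 FPKM in both lines. Of the 12 list members below the threshold, 10 had a higher mean in Dgcr8 KO and 2 a lower one. Irf7 was at 0.157 and 0.189 FPKM in WT and 0.200 and 0.373 in Dgcr8 KO. Ifit1 was at 0.0125 and 0.0111 FPKM in WT and 0.550 and 0.630 in Dgcr8 KO. Mx1 was at 0 and 0 FPKM in WT and 0.0126 and 0 in Dgcr8 KO.

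Of 12 tested MHC class I genes 10 were higher (83.3%) and 1 lower. Psmb8 and Erap1, low in WT, passed the threshold only through their KO values. Tapasin (Tapbp, ENSMUSG00000024308.14, chromosome 17, 33915899 to 33929292, plus strand), which loads peptides onto the heavy chain, was at 8.08 and 9.38 FPKM in WT and 63.7 and 62.3 in Dgcr8 KO (log2 difference 2.72 ± 0.11, adjusted p = 3.53e-06). Erap1, which trims those peptides, was at 0.508 and 0.553 FPKM in WT and 10.3 and 11.8 in Dgcr8 KO (2.97 ± 0.12). Psme2, a proteasome activator, was at 23.4 and 26.2 FPKM in WT and 117 and 101 in Dgcr8 KO (2.09 ± 0.10). The 3 inducible proteasome subunits split. Psmb8 was at 0.0977 and 0.0850 FPKM in WT and 11.1 and 8.78 in Dgcr8 KO (3.32 ± 0.18). Psmb9 was at 1.48 and 1.29 FPKM in WT and 2.104 and 1.35 in Dgcr8 KO, and the lines overlapped. Psmb10, on chromosome 8, was at 47.2 and 41.1 FPKM in WT and 21.3 and 16.9 in Dgcr8 KO (-1.17 ± 0.13). Heavy chains rose less. H2-D1, whose relatives can share its reads, was at 8.37 and 7.91 FPKM in WT and 14.8 and 10.96 in Dgcr8 KO (0.59 ± 0.13). With the mimic Irf1 stood at 13.2 and 11.1 and Tapbp at 15.2 and 13.5 FPKM, below both KO control libraries. With siMbnl1/2 they stood at 38.3 and 38.9 and 59.2 and 69.4.

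DNA methylation genes changed in both directions. Of 5 writers 4 were lower and 1 higher, of 4 erasers 3 lower and 1 higher, and of 6 readers 1 lower and 3 higher. Over all 15, 5 were higher and 8 lower, against 3 and 6 under quantile normalization, 3 and 8 with length centring and 3 and 7 with the replicate block. Among the erasers, the call of Tet1 was lost in 9 settings, and its difference was -0.19, against 0.05 under quantile normalization. The de novo enzyme gene Dnmt3b was at 54.7 and 53.1 FPKM in WT and 34.4 and 32.9 in Dgcr8 KO (-0.66 ± 0.09). The oxidase gene Tet2 was at 36.7 and 38.4 FPKM in WT and 22.2 and 24.8 in Dgcr8 KO (-0.66 ± 0.10). Its relative Tet3 was at 1.73 and 1.59 FPKM in WT and 4.102 and 3.83 in Dgcr8 KO (0.90 ± 0.11). Germline genes that methylation keeps silent in somatic cells were lower in 12 of 17 cases (70.6%) and higher in 4. With length centring 8 were lower and 4 higher. Dazl, a germ cell RNA-binding protein gene, was at 6.09 and 5.58 FPKM in WT and 2.201 and 2.33 in Dgcr8 KO (-1.07 ± 0.13). The X-linked Rhox homeobox cluster was divided. Rhox5 was at 125 and 111 FPKM in WT and 19.7 and 16.00 in Dgcr8 KO (-2.66 ± 0.35). Rhox6 was at 5.65 and 5.69 FPKM in WT and 19.5 and 17.96 in Dgcr8 KO (1.56 ± 0.09). Rhox9 was at 4.13 and 4.102 FPKM in WT and 29.1 and 27.3 in Dgcr8 KO (2.51 ± 0.09). The first fell while its neighbours rose.

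Imprinted genes held some of the widest gaps. Plagl1, a paternally expressed zinc finger gene (ENSMUSG00000019817.18, chromosome 10, 13060504 to 13131694, plus strand), was at 1.61 and 1.53 FPKM in WT and 29.8 and 31.1 in Dgcr8 KO (log2 difference 3.61 ± 0.08, adjusted p = 8.12e-07), 1 of the 26 rises of at least 8-fold. Phlda2, a maternally expressed brake on placental growth, was at 153 and 154 FPKM in WT and 13.9 and 10.01 in Dgcr8 KO (log2 difference -3.60 ± 0.15, adjusted p = 4.20e-06), 1 of the 14 falls of that size. Grb10, an adaptor that dampens insulin signalling, was at 117 and 117 FPKM in WT and 41.99 and 43.1 in Dgcr8 KO (-1.44 ± 0.06). Of 10 maternally expressed genes 2 were higher and 6 lower, with a median of -0.62, and of 12 paternally expressed genes 5 were higher and 5 lower, with a median of 0.19. The difference between these classes was not tested. Peg3, a paternally expressed gene, was at 4.36 and 4.59 FPKM in WT and 14.7 and 14.9 in Dgcr8 KO (1.53 ± 0.10). Igf2, another, was at 14.9 and 15.4 FPKM in WT and 18.3 and 14.5 in Dgcr8 KO, and the lines overlapped. The table does not separate alleles.

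Genes that build ribosomes were lower almost without exception. Of 24 ribosome biogenesis genes 23 fell (95.8%), with a median of -0.77, and 20 and 22 fell under quantile normalization and length centring. By limma 0 rose, in these settings and at an unadjusted p under 0.05. Nucleolin (Ncl, ENSMUSG00000026234.12, chromosome 1, 86344719 to 86359400, minus strand) was at 1031 and 1036 FPKM in WT and 575 and 609.9 in Dgcr8 KO (log2 difference -0.80 ± 0.09, adjusted p = 2.39e-04). Npm1, a nucleolar chaperone gene, was at 2657 and 2651 FPKM in WT and 1471 and 1566 in Dgcr8 KO (-0.81 ± 0.10). Bop1, needed for the large subunit, was at 54.1 and 49.9 FPKM in WT and 26.4 and 21.1 in Dgcr8 KO (-1.10 ± 0.11). With the mimic Ncl stood at 1004 and 1016 FPKM, just below WT. The ribosomal protein genes were lower by an amount that depended on the scaling: 73 of 79 were lower as deposited (median -0.49), 50 with length centring and 32 under quantile normalization, where 8 were higher. Nuclear genes of the respiratory chain were lower in 60 of 88 cases as deposited, in 36 with length centring and in 34 under quantile normalization. In the same order, 3, 10 and 8 of them were called higher.

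In the Myc network the fall of Myc (from 32.8 and 33.3 to 1.99 and 2.53 FPKM) stood beside rises of most partners and antagonists, 7 of 9 of which were higher and 1 lower. Its 2 relatives went apart. Mycl was at 1.84 and 1.92 FPKM in WT and 1.18 and 0.831 in Dgcr8 KO (-0.53 ± 0.13), a call lost without KO replicate 2 or WT replicate 2. Mycn was at 44.7 and 45.3 FPKM in WT and 68.9 and 66.6 in Dgcr8 KO (0.58 ± 0.07). Mnt, which competes with Myc for Max, was at 8.02 and 8.599 FPKM in WT and 15.8 and 14.1 in Dgcr8 KO (0.78 ± 0.11). Genes of the ATF4 program, which supplies amino acids, were lower in 13 of 19 cases (68.4%) and higher in 2. Atf4 was at 252 and 240.4 FPKM in WT and 149 and 146 in Dgcr8 KO (-0.74 ± 0.08). Phgdh, the entry enzyme of serine synthesis, was at 141 and 134 FPKM in WT and 65.1 and 52.8 in Dgcr8 KO (log2 difference -1.21 ± 0.11, adjusted p = 8.38e-05). Slc7a5, the light chain of the large neutral amino acid transporter, was at 141 and 140.3 FPKM in WT and 64.7 and 54.1 in Dgcr8 KO (-1.24 ± 0.13). These followed the list, where 10 of 12 genes for synthesis and transport fell. Of 24 cholesterol genes 14 were lower (58.3%) and 3 higher. Msmo1, a sterol oxidase gene, was at 44.7 and 46.2 FPKM in WT and 17.8 and 19.8 in Dgcr8 KO (-1.23 ± 0.18).

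Short transcripts were lower as a class. By the longest annotated transcript of a coding gene, the median was -0.36 below 1 kb (498 genes), -0.25 at 1 to 2 kb, -0.07 at 2 to 3 kb, 0.03 at 3 to 5 kb and 0.24 at 5 kb or more (2573 genes). Both KO libraries showed the trend, from -0.31 to 0.25 in replicate 1 and from -0.43 to 0.23 in replicate 2. The 2 WT libraries differed by at most 0.04 in any class. The 2 KO libraries differed more, and with length: replicate 1 minus replicate 2 was 0.14 below 1 kb, 0.14 at 1 to 2 kb and 0.03 at 5 kb or more. The genes below 1 kb that are neither ribosomal nor respiratory had a median of -0.31, and those that are had -0.47. The part of RNA quality or library preparation in this trend was not tested.

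**Figure D4:**
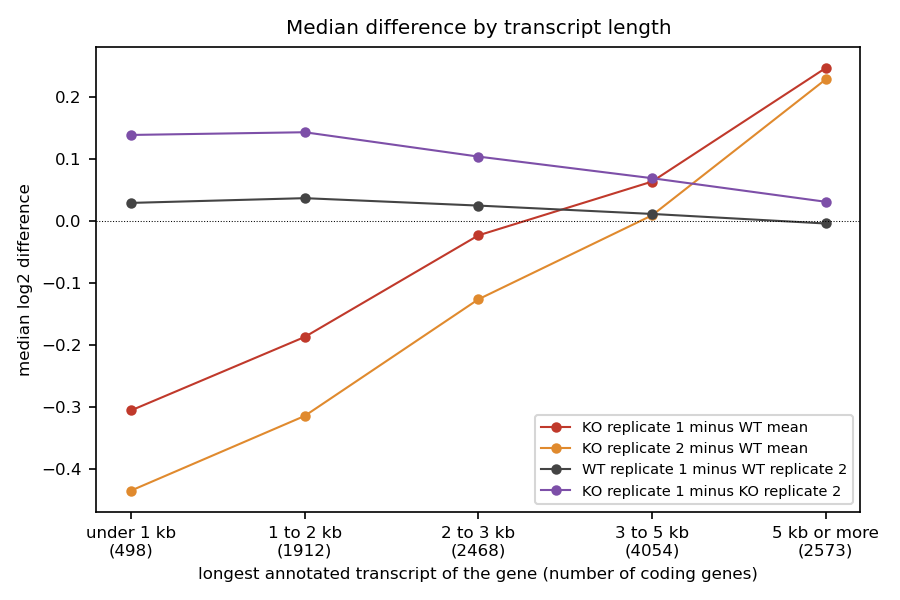
Median log2 difference of coding genes by length of the longest annotated transcript, with 1 line for each KO library against the WT mean, 1 for the 2 WT libraries against each other and 1 for the 2 KO libraries against each other. The lines of the KO libraries against WT climb from -0.31 and -0.43 in the shortest class to 0.25 and 0.23 in the longest. The WT line stays within 0.04 of 0, and that of the KO libraries against each other is at 0.14 in the shortest class and 0.03 in the longest.

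Splicing regulators of specific tissues were higher in 9 and lower in 5 of 18 tested, and in 7 and 6 with length centring. Mbnl1 was at 4.799 and 5.12 FPKM in WT and 8.003 and 9.42 in Dgcr8 KO (0.70 ± 0.10). Mbnl2 was at 12.8 and 12.9 FPKM in WT and 24.7 and 28.6 in Dgcr8 KO (0.99 ± 0.12). Both are known for promoting adult splice forms. Esrp1, an epithelial splicing factor, was at 4.79 and 4.697 FPKM in WT and 12.7 and 12.03 in Dgcr8 KO (1.22 ± 0.11). Elavl2, a neuronal Hu protein gene with an 8mer match to the miR-290 seed, was at 6.31 and 5.71 FPKM in WT and 16.5 and 17.7 in Dgcr8 KO (1.37 ± 0.09). With the mimic Elavl2 stood at 4.81 and 4.86 FPKM, below both WT libraries. Ptbp1, which represses neuronal exons, was lower, at 330.1 and 319.5 FPKM in WT and 232 and 207 in Dgcr8 KO (-0.57 ± 0.07). The general SR and hnRNP factors were lower in 14 and higher in 1 of 30 as deposited, a direction that turned under quantile normalization, with 3 lower and 8 higher.

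Epithelial and mesenchymal genes were both mostly higher. Of 22 epithelial genes 13 were higher (59.1%) and 5 lower, and of 8 mesenchymal genes 6 were higher and 1 lower. Epcam, a surface adhesion molecule gene, was at 55.8 and 52.8 FPKM in WT and 86.1 and 79.99 in Dgcr8 KO (0.60 ± 0.08). Cldn3, a tight junction claudin, was at 4.01 and 3.08 FPKM in WT and 16.2 and 12.7 in Dgcr8 KO (1.76 ± 0.18). Cldn6, another claudin, was lower, at 23.03 and 21.5 FPKM in WT and 11.9 and 9.799 in Dgcr8 KO (-0.98 ± 0.10). On the mesenchymal side, vimentin (Vim), a filament protein with an 8mer match in its 3′ UTR, was at 87.6 and 79.9 FPKM in WT and 243 and 207 in Dgcr8 KO (1.41 ± 0.12). Fibronectin (Fn1) was at 66.6 and 68.05 FPKM in WT and 147 and 126 in Dgcr8 KO (1.00 ± 0.14). Zeb1, a repressor of epithelial genes, was at 3.46 and 3.897 FPKM in WT and 7.02 and 7.97 in Dgcr8 KO (0.86 ± 0.11). E-cadherin (Cdh1), the best known of those targets and a gene on chromosome 8, was at 105 and 106 FPKM in WT and 96.7 and 93.4 in Dgcr8 KO, without a call.

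Chromosome 8 stood apart from the other chromosomes. Of its 702 tested genes 395 were lower (56.3%) and 97 higher, with a median of -0.43, and elsewhere 29.2% of genes were lower. The medians of the other autosomes and X ran from -0.08 to 0.08. The low level was spread along the chromosome: in each of 7 windows of 20 Mb the median was below 0, from -0.21 to -0.50. The ratio of KO to WT was taken for genes with a mean of at least 10 FPKM over the WT and KO control libraries. For the 413 such genes on chromosome 8 the median was 0.676 on the linear scale, 0.702 and 0.649 in the 2 KO libraries. The medians of the other chromosomes ran from 0.881 to 0.981. The libraries with the mimic (0.679 and 0.682) and with siMbnl1/2 (0.668 and 0.670), against WT, were as low. Copy number was not measured, and fewer copies and less RNA per copy cannot be told apart. Rbl2, Irf2 and Klf2 lie there and rose against this level. Without chromosome 8 genes the count of lower DNA replication genes changed by 6, and the counts of the other lists by at most 3.

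**Figure D5:**
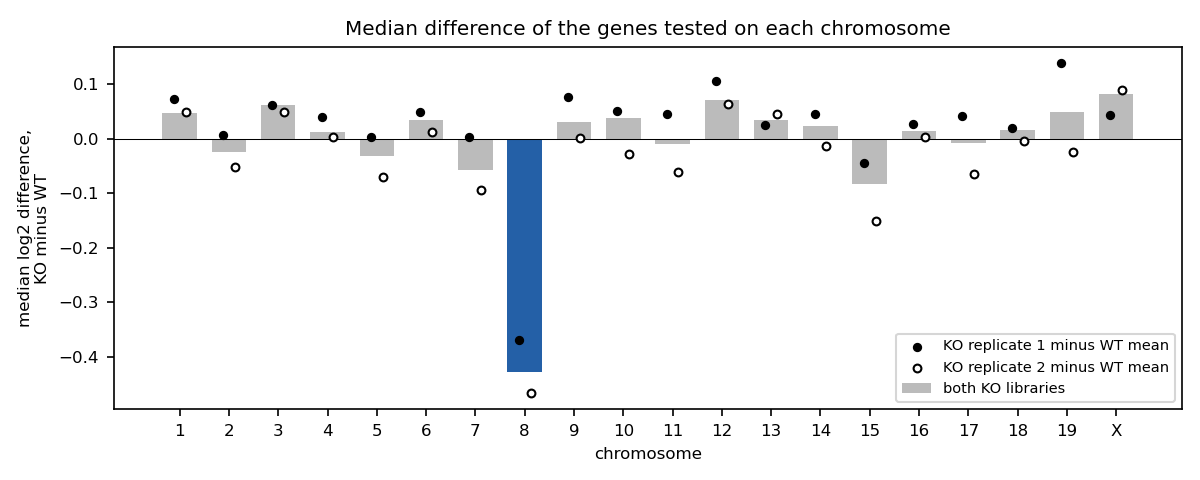
Bars give the median log2 difference (Dgcr8 KO minus WT) of the tested genes on each chromosome, and points the same for each KO library against the WT mean. Chromosome 8 (blue) lies at -0.43 and all other chromosomes shown between -0.08 and 0.08.

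Genes of the Y chromosome, looked at after chromosome 8 had been seen, also differed. Eif2s3y, a translation initiation factor gene, was at 24.1 and 23.1 FPKM in WT and 3.23 and 2.63 in Dgcr8 KO (log2 difference -2.65 ± 0.28, adjusted p = 1.45e-04). Uty, a relative of a histone demethylase, was at 6.49 and 6.85 FPKM in WT and 0.673 and 0.847 in Dgcr8 KO (-2.12 ± 0.14). Ddx3y, a helicase gene, was at 6.82 and 7.32 FPKM in WT and 4.77 and 5.197 in Dgcr8 KO, without a call. All 3 have close X-linked copies that can share their reads. With the mimic Eif2s3y was at 1.83 and 2.18 and with siMbnl1/2 at 3.01 and 1.03 FPKM, as low as in the KO control. Xist, the RNA that coats an inactive X, was below the threshold in both lines, at 0.127 and 0.129 FPKM in WT and 0.137 and 0.138 in Dgcr8 KO.

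A few genes were present in 1 line and nearly absent in the other, taken as both libraries under 0.5 FPKM against both at 5 or more. There were 17 such genes with RNA in Dgcr8 KO and 15 with RNA in WT. Leaving out Gm names, small RNA genes and pseudogenes, 11 of the 17 and 11 of the 15 remained. Among those left out are very short genes. Gm26493, a snoRNA gene, and Gm27605 both stood at 8.38 FPKM in KO replicate 2, so such values can rest on very few fragments. By limma 17 and 12 were called, which the choice by the gap between the same libraries largely fixed. Grin1, an NMDA receptor subunit gene, was at 0.174 and 0.191 FPKM in WT and 14.02 and 11.1 in Dgcr8 KO. Hhip, a Hedgehog-binding protein gene on chromosome 8, was at 0.253 and 0.389 FPKM in WT and 6.35 and 6.44 in Dgcr8 KO. Gbp2, an interferon-induced guanylate-binding protein gene, was at 0.159 and 0.212 FPKM in WT and 5.82 and 5.34 in Dgcr8 KO. These were near 0 in WT. The long noncoding RNA gene Lncpint was at 0.0647 and 0 FPKM in WT and 9.65 and 9.84 in Dgcr8 KO and at 6.21 and 7.24 with the mimic, so that WT alone was near 0. Apart from primitive endoderm genes, those with RNA in WT included Nxf7 and Ctsh. Nxf7, an X-linked relative of an RNA export factor, was at 6.58 and 6.69 FPKM in WT and 0.190 and 0.116 in Dgcr8 KO. Ctsh, a lysosomal protease gene, was at 6.81 and 6.64 FPKM in WT and 0.294 and 0.246 in Dgcr8 KO. With the mimic they stood at 0.227 and 0.264 and 0.497 and 0.256 FPKM, far below WT.

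Among the genes with RNA in both lines some of the largest differences lay outside all the lists. Fxyd6, a regulator of the sodium pump, was at 10.51 and 9.56 FPKM in WT and 116 and 95.5 in Dgcr8 KO (3.27 ± 0.14). Aldh1b1, a mitochondrial aldehyde dehydrogenase gene, was at 2.16 and 1.94 FPKM in WT and 31.5 and 25.5 in Dgcr8 KO (3.27 ± 0.22). Saa3, an acute phase protein gene, was at 4.72 and 4.603 FPKM in WT and 61.4 and 56.7 in Dgcr8 KO (3.41 ± 0.10). In the other direction stood Calca, the calcitonin gene, at 30.8 and 31.4 FPKM in WT and 2.68 and 2.19 in Dgcr8 KO (-3.23 ± 0.10). Eras, a constitutively active Ras of stem cells, was at 37.02 and 36.2 FPKM in WT and 3.76 and 4.04 in Dgcr8 KO (-2.94 ± 0.09). Tcf15, a bHLH factor of early differentiation, was at 88.8 and 81.00 FPKM in WT and 11.1 and 9.11 in Dgcr8 KO (-2.96 ± 0.12). With the mimic Calca stood at 48.7 and 47.96 and Eras at 32.4 and 31.1 FPKM, Calca above and Eras just below both WT libraries. With siMbnl1/2 they stood at 2.03 and 1.66 and 5.44 and 4.53.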

How the data were processed

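The data are 8 RNA-seq libraries from mouse stem cells, 2 each of WT, Dgcr8 KO, Dgcr8 KO with the miR-294 mimic and Dgcr8 KO with siMbnl1/2, grouped by the labels. Per the submitters' processing notes, the mm10 build, Cufflinks (2.2.1) and STAR (2.5.0) were used, and the authors deposited 1 table of FPKM per gene, without raw counts. FPKM are relative to the fragments of the library, so a change in abundant genes moves all others. No paper was used.

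Values were taken as log2(FPKM + 1). limma 3.58.1 in R 4.3.3 fitted 4 group means over all 8 libraries (trend and robust variance, two-sided), with Benjamini-Hochberg adjustment over the 12685 genes with a mean of at least 1 FPKM over the 4 libraries compared. A gene was called at an adjusted p under 0.05. All 8 libraries entered so that the spread is estimated from 4 pairs. The fit was first tested on simulated data with known changes. Gene lists were described by counts and medians, without tests.

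Depth was read from the FPKM steps of single-transcript genes, where 95.1 to 96.7% of low values were whole numbers of fragments within 0.1. Of 49641 entries 49384 matched GENCODE M21 without regard to version, which gave coordinates, lengths and 3′ UTRs.

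The members, lists and tests were chosen with earlier results of these data known. Named genes are Dgcr8, the 15 largest called increases and decreases with plain names, the key members and 3 largest changes of each list, the genes present in 1 line only and those with printed matches. A further 37 tested genes, and the list members given as below the threshold, were chosen after their values were seen. A few of these genes are not reported here. Alternatives varied the pseudocount, filter, scaling, libraries, weights, block and variance options. Length centring and leaving out chromosome 8 were chosen after seeing the data.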

Additional observations from a re-analysis of the deposited data

How the results depend on the processing

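Over the whole table the counts of called genes stayed within 1.5 times the values reported, with 2 exceptions. With a pseudocount of 0.1 the genes lower by at least 2-fold numbered 768 instead of 510, and with a mean of at least 5 FPKM those higher by at least 2-fold numbered 651 instead of 1052, since fewer genes were tested. Leaving out 1 library at a time gave 5795 to 6813 called genes. The labels do not say whether replicates of the same number belong together. Differences between replicates 1 and 2 correlated across genes at 0.188 between WT and Dgcr8 KO. For the other pairs of groups the correlation was -0.052 to 0.096. These values do not settle it. With the replicate block 7140 genes were called, 3493 higher and 3647 lower, and 6 of the 261 named genes with a call lost it.

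The median difference for the miR-290 seed, 0.28, was 0.45 for 8mer matches, 0.21, 0.16 and 0.17 in the 3 classes of 3′ UTR length, 0.22 under quantile normalization and 0.14 with length centring. It ran from 0.23 to 0.31 without 1 library. Of 299 named genes 261 were called. Of these 31 lost their call in some setting, and 4 turned direction. Under quantile normalization these were Srsf1 (0.16) and Tet1 (0.049), and with length centring Ago2 (-0.0381) and Tfcp2l1 (-0.0717). The cause was not tested.

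Depth sets the lower limit: 1 FPKM in a 2 kb transcript stood for 51.2 to 66.2 fragments, so values under 0.1 FPKM rest on a handful of fragments, and pairs of libraries give a wide error for such genes.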

Other observations

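Further lists gave mixed directions. Of 22 tested genes of the Bcl2 family and caspases 7 were higher and 6 lower in Dgcr8 KO by limma. Bcl2l11 (Bim), a killer protein of the family, was at 12.7 and 12.7 FPKM in WT and 21.7 and 22.5 in Dgcr8 KO (0.75 on the log2 scale). Bid, another, was at 24.1 and 23.8 FPKM in WT and 12.8 and 10.6 in Dgcr8 KO (-0.98). Of 19 p53 targets 6 were higher and 6 lower. The inhibitor gene Mdm2 was at 86.5 and 87.97 FPKM in WT and 51.5 and 50.2 in Dgcr8 KO (-0.77). Plk2, a kinase that p53 induces, was at 19.2 and 18.03 FPKM in WT and 8.28 and 9.11 in Dgcr8 KO (-1.02), in the direction opposite to Rrm2b (1.97) and Gdf15 (0.97).

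Glycolysis genes were higher in 7 and lower in 8 of 23 cases, and paralogs went apart. Aldoa, the main aldolase, was at 906 and 862 FPKM in WT and 495 and 430.0 in Dgcr8 KO (-0.94), while Aldoc rose by 0.70. Ldha, the lactate dehydrogenase chain of glycolytic tissue, was at 504 and 479 FPKM in WT and 379 and 345 in Dgcr8 KO (-0.44). Its relative Ldhb was at 40.9 and 37.7 FPKM in WT and 74.7 and 60.9 in Dgcr8 KO (0.77). The median of this list changed sign under quantile normalization.

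Of 15 let-7 targets 8 were higher and 5 lower (7 and 6 with length centring), the largest rise being Ccnd2. Hmga2, a chromatin protein gene with many let-7 matches, was at 4.56 and 4.85 FPKM in WT and 9.08 and 9.81 in Dgcr8 KO (0.87), and Igf2bp2 at 14.6 and 15.3 FPKM in WT and 31.1 and 30.4 in Dgcr8 KO (0.99). Of 14 smooth muscle and SRF target genes 5 were higher and 4 lower. The SRF coactivator gene Mkl2 rose by 1.03 and Tpm1, a tropomyosin, by 1.00, while Tagln fell by 1.00. Of 13 tested genes of the rare two-cell-like state 0 were called higher by limma, and 0 at an unadjusted p under 0.05. Zscan4d, 1 of a family of near-identical genes, was at 4.81 and 4.67 FPKM in WT and 5.65 and 6.35 in Dgcr8 KO. Of 13 mitochondrially encoded genes 3 were higher and 0 lower, also at an unadjusted p under 0.05, and the median of this list changed sign without KO replicate 2 (-0.22) and without WT replicate 1 (-0.09).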
